A study of Rattus norvegicus with 6 samples.

Results

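The genes described here encode the machinery of vesicle traffic: Rab, Arf and Arl GTPases with their regulators, coat and adaptor proteins, tethers, SNAREs, sorting nexins, retromer and ESCRT subunits. They were chosen by symbol alone, with a name pattern for these families, and 97 of the 3221 entries of the deposited expression table matched it. The pattern uses no measured value, but every entry it could match had already passed the authors' threshold for the serum difference. The pattern also covers several kinesin motors, but none was among the matches.

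Membrane proteins and secreted cargo move between organelles in vesicles. Coats (COPII and COPI in the early secretory pathway, clathrin with its adaptors at the trans-Golgi network, endosomes and plasma membrane) gather cargo and bend the membrane, Rab and Arf GTPases mark the compartment, tethers hold the arriving vesicle and SNAREs fuse it. In cardiac muscle this traffic delivers ion channels and the insulin-regulated glucose transporter GLUT4 to the surface and recycles receptors from it.

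Neonatal rat ventricular myocytes (NRVMs), muscle cells isolated from the hearts of 2-day-old Sprague-Dawley rats, were cultured with human serum from children with dilated cardiomyopathy (DCM) or from nonfailing (NF) children, to ask how circulating factors of DCM serum change gene expression. The labels give 1% serum for 72 hours, while the methods give another concentration and a range of times. There were 3 DCM serum and 3 NF serum libraries, 1 of each from each of 3 NRVM preparations, here called A, B and C, and each library pooled 2 RNA preparations. The human serum acts on rat cells in culture, the labels of the NF libraries of B and C name the same sera, and the cells are a primary isolate that can hold cells other than myocytes.

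The values are FPKM (fragment numbers adjusted for exon length and for the mapped reads of a library), and the number of reads behind each value is unknown, because the table gives no counts and the methods give only an average depth per library. The authors' threshold was a q of 0.10 on the same ratios that are tested here. A call is therefore no independent support, and genes outside the table were not analysed here. At this q the paper reports fewer genes than the table holds, and more of them higher than lower with DCM serum. The reason for this difference is not known. As a whole the table leaned to lower values with DCM serum, with 252 entries higher and 2969 lower in all 3 preparations. All 3221 entries thus kept the same sign in all 3 preparations, so agreement in sign is a property of the table. Its median log2 ratio was -0.17 for preparation A, -0.40 for B and -0.25 for C. Of the 13 cardiomyocyte markers looked for only the ventricular light chain Myl2 is in the table, at 6628 to 11270 FPKM with DCM serum and 9235 to 11360 FPKM with NF serum. Among markers of other cells, 2 of 8 for fibroblasts (Lum and Postn) summed to 10.3 to 38.0 FPKM with DCM serum and 13.8 to 64.0 FPKM with NF serum, and 1 of 6 for smooth muscle (Tagln) was at 70.4 to 116 FPKM with DCM serum and 112 to 146 FPKM with NF serum. For endothelium 1 of 6 (Pecam1) was at 2.34 to 3.22 FPKM with DCM serum and 1.51 to 2.19 FPKM with NF serum, and no marker of macrophages, Schwann cells or neurons is in the table. The part of these cells in the results was not tested. In bulk RNA, fewer cells of a type and less RNA per cell cannot be told apart.

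Serum groups were compared on log2(FPKM + 1) with limma, with the preparation as a block, and a gene is said to have risen or fallen where its p, adjusted over the 3221 entries by the Benjamini-Hochberg method, was under 0.10. A ratio given with an SD is the log2 of FPKM with DCM serum over FPKM with NF serum, averaged over the 3 preparations.

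Of the 97 trafficking genes, 95 were lower and 2 higher on average with DCM serum, and most differences were small. In the paired limma fit 52 fell, 1 rose and 44 did not pass. The background in the table was 61.6% of entries falling and 6.24% rising, so the share of trafficking genes that fell (53.6%) was not above it. The same background stands behind the counts of each role group, which hold 7 to 17 genes and were not tested as groups. The median ratio of the trafficking genes was -0.23 (range -1.72 to 0.16), against -0.29 for all entries. There were 10 genes with a fall of more than 1.5-fold and 19 with a change of less than 1.1-fold in either direction. Of all 3221 entries, 504 had such a fall and 377 such a small change. For 26 genes all 3 DCM libraries lay below all 3 NF libraries (26.8%, background 25.7%), and for none did all 3 DCM libraries lie above (background 2.73%). The unpaired limma fit, without the preparation block, called none of the 97 (background 0.124%, smallest adjusted p 0.241). In that fit 14 of the 97 had an unadjusted p under 0.05, as did 533 of all 3221 entries.

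**Figure D1:**
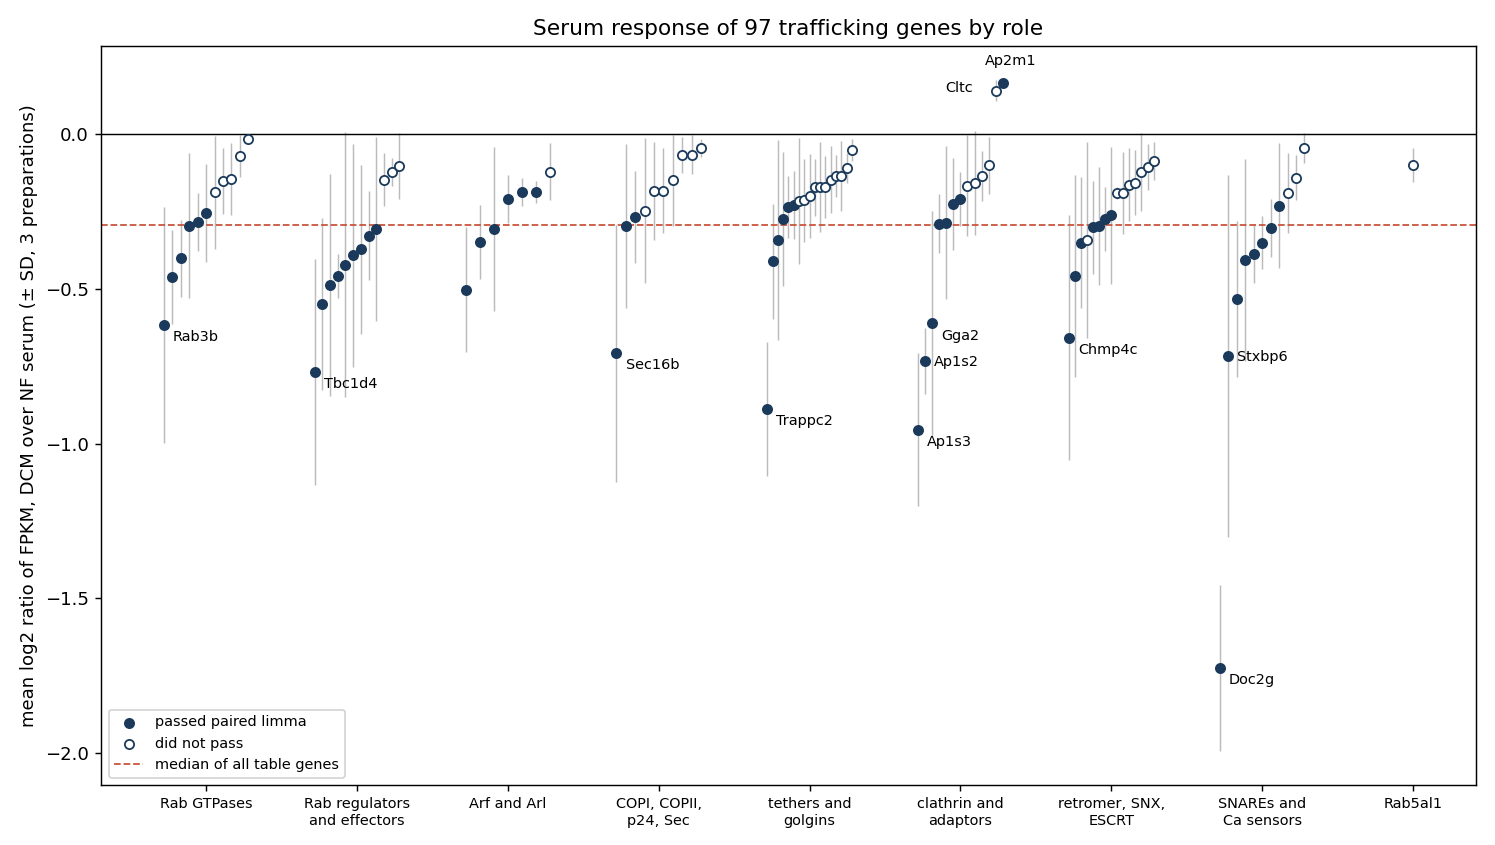
Mean log2 ratio of FPKM, DCM over NF serum, for the 97 trafficking genes (1 point a gene, bars ± SD over 3 preparations), grouped by role and filled where the gene passed the paired limma fit. Most points lie below 0 and near the median of all table entries (dashed, -0.29), Ap2m1 and Cltc are the 2 points above 0, and Doc2g is the lowest at -1.72.

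The number of calls rested on all 3 preparations. The trafficking genes that fell numbered 24 without A, 14 without B and 11 without C. Of all 3221 entries, 1164, 461 and 523 fell in the same fits, against 1984 in the full one. There were 7 trafficking genes that passed in each of these fits as well as in the full one (Ap1s2, Ap1s3, Arl10, Doc2g, Tbc1d4, Trappc2 and Vamp5). How many of all entries did so was not counted, so these 7 have no background to be set against. After each preparation was centred on the median of the table, 10 trafficking genes fell (10.3%, background 10.7%) and 2 rose (2.06%, background 7.82%). The 10 were Ap1s2, Ap1s3, Doc2g, Gga2, Rab3b, Sec16b, Stxbp6, Tbc1d4, Trappc2 and Vamp5, and the 2 were Ap2m1 and Cltc. Among the 97 genes, 18 lay below the table median and 29 above it in all 3 preparations (18.6% and 29.9%, against 23.2% and 24% of all entries). All 8 role groups had a median ratio below 0 as deposited, but after centring only Rab regulators (-0.11) and SNAREs (-0.08) did. The medians come from a table selected with mostly lower genes, so they need not hold for the whole libraries.

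Genes of the clathrin system differed in direction. Clathrin has no affinity for membranes and is recruited by adaptors, AP-1 and the GGA proteins at the trans-Golgi network and endosomes, and AP-2 at the plasma membrane. The 2 AP-1 sigma subunits of the table and the GGA adaptor Gga2 fell with DCM serum, while Ap2m1, the mu subunit of AP-2, rose slightly and Cltc, the clathrin heavy chain, had a positive ratio that did not pass. The promoters of 4 coat genes of this contrast are shown, because the ratios of each pair had the same sign. They are given 5′ to 3′ from RefSeq (build GRCr8, matched by symbol, 250 bases before to 50 after the start), with capitals for the GC box GGGCGG, on either strand, and for the E-box CACGTG.
Ap2m1 (chr11:93868431-93868730, minus strand): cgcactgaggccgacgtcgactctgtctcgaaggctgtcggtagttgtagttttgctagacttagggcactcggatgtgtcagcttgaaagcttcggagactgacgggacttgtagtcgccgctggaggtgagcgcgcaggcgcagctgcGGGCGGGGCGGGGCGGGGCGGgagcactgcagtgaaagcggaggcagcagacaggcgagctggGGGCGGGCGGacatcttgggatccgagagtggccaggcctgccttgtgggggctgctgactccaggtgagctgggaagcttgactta
Cltc (chr10:72070642-72070941, minus strand): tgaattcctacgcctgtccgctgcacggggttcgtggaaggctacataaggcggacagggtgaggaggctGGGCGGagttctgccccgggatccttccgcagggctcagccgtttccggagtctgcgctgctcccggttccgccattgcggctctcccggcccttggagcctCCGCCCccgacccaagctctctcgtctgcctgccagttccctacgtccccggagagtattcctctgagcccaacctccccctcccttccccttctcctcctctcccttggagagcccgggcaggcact
Ap1s2 (chrX:34230635-34230934, minus strand): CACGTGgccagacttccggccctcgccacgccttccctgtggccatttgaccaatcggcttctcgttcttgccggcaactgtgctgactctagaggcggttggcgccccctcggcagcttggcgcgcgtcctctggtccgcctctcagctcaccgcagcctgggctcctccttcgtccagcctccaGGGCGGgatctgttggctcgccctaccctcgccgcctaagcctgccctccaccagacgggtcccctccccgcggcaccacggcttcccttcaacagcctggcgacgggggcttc
Ap1s3 (chr9:88458150-88458449, minus strand): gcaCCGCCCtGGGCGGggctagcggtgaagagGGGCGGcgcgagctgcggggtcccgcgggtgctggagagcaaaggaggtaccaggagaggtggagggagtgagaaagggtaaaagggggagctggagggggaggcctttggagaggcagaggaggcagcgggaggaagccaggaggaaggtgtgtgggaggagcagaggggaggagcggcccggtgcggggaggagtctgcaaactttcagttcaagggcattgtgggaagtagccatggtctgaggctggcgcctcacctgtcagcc
The GC box, a sequence bound by Sp1-family factors, occurred in all 4, with 6 overlapping or separate matches for Ap2m1, 2 for Cltc, 1 for Ap1s2 and 3 for Ap1s3. The E-box CACGTG, the core of the element bound by the lysosomal regulator TFEB, was found only in Ap1s2 among the 4. Of the 88 trafficking genes with a promoter in the reference, 68.2% held the GC box and 11.4% the E-box, against 65.7% and 10% of the 2435 table genes with a promoter and 36% and 7.08% of all 27457 promoters. These matches describe the sequence and not binding.

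Ap1s2 was at 13.2, 9.63 and 10.3 FPKM in DCM libraries A, B and C, against 23.0, 16.6 and 15.7 FPKM in NF libraries A, B and C. All 3 DCM libraries lay below all 3 NF libraries, and the ratio was -0.73 ± 0.11 (limma adjusted p = 0.0179). Ap1s3 was at 6.17, 6.22 and 8.60 FPKM in the DCM libraries, against 12.2, 14.2 and 13.9 FPKM in the NF libraries, again without overlap. Its ratio of -0.96 ± 0.25 was the second most negative of the 97 (limma adjusted p = 0.0193). Gga2, which sorts lysosomal enzyme receptors at the trans-Golgi network, was at 4.54, 2.83 and 4.23 FPKM with DCM serum, against 5.42, 5.59 and 6.40 FPKM with NF serum. Its DCM libraries were likewise all lower, with the widest gap in preparation B (ratio -0.61 ± 0.36, limma adjusted p = 0.0451). Its relative Gga1 had a ratio of -0.17 ± 0.16 and did not pass.

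Ap2m1 was at 157, 115 and 118 FPKM in DCM libraries A, B and C, against 141, 102 and 106 FPKM in NF libraries A, B and C. The groups overlapped, since preparation A was high with both sera. Within each preparation the DCM library was the higher, as for every higher entry of the table (log2 ratios 0.16, 0.18 and 0.16). Its mean ratio was 0.16 ± 0.01 (limma adjusted p = 0.0899, and 0.534 without the block), and it did not pass in fits that lacked A (adjusted p = 0.166), B (0.198) or C (0.279). Cltc was at 71.1, 47.6 and 50.4 FPKM with DCM serum, against 64.0, 42.4 and 47.0 FPKM with NF serum, a ratio of 0.14 ± 0.04 (limma adjusted p = 0.123). Ap2m1 and Cltc kept a positive sign under every scaling tried, but centring and scaling raise every ratio here, so this sign could not turn. The FPKM of Ap1s2 as a share of that of Ap2m1 in the same library was 0.0839, 0.0838 and 0.0867 with DCM serum, against 0.163, 0.164 and 0.148 with NF serum, and this ratio does not change when a library is rescaled. It was lower in all 3 DCM libraries, by 0.90 ± 0.11 on the log2 scale. Within each preparation this direction follows from the opposite signs of Ap1s2 and Ap2m1. This pair was chosen after the values were seen, so no test is given.

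**Figure D2:**
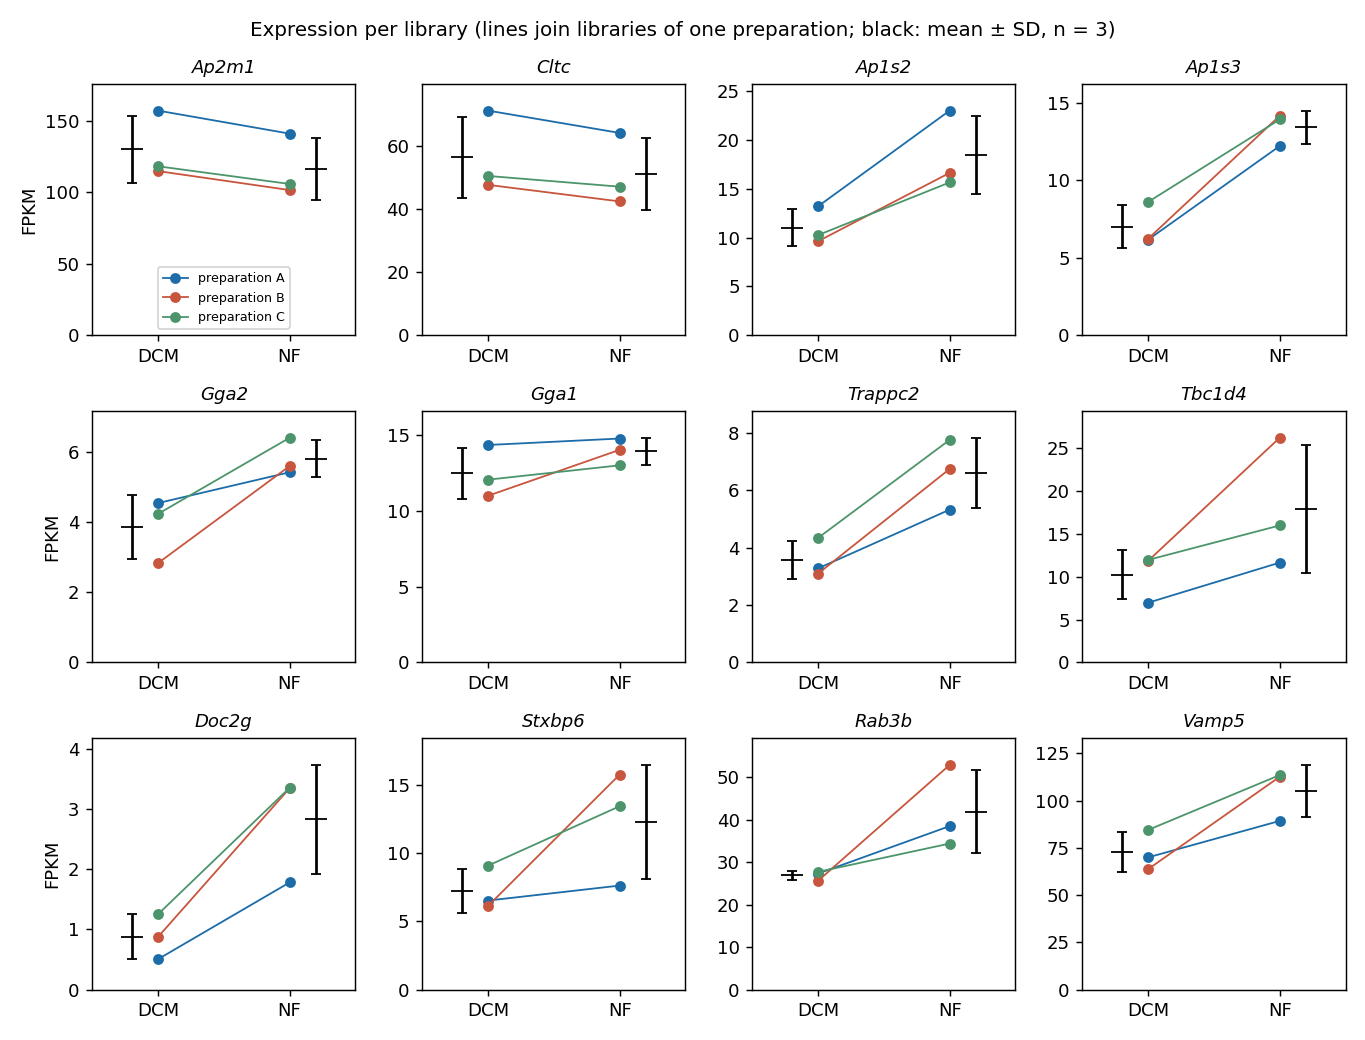
FPKM of 12 trafficking genes in each library, DCM left of NF, with lines joining the 2 libraries of a preparation and black marks for the mean ± SD (n = 3). Ap2m1 and Cltc are higher with DCM serum within every preparation, while the other 10 genes are lower. For each of these 10 except Ap1s2 the difference is widest in preparation B, which gave the most negative ratio for 58.0% of all table entries. No entry of the table changes sign between preparations.

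The other adaptor subunits were lower by less. Ap3m1 of the endosomal AP-3 complex fell (ratio -0.29 ± 0.10, no overlap between the sera), and Ap3s2 of the same complex had -0.14 ± 0.08 and did not pass. Ap5m1 of AP-5 fell (-0.29 ± 0.25), whereas Ap4b1 of AP-4 had -0.10 ± 0.09. Ehd1, an ATPase of the recycling endosome that has been studied for channel delivery in heart muscle, averaged 28.6 ± 5.48 FPKM with DCM serum and 33.3 ± 5.23 FPKM with NF serum (SD, n = 3 each). It fell by 0.23 ± 0.15 on the log2 scale (limma adjusted p = 0.0822). After centring, its difference on the log2(FPKM + 1) scale was 0.01 and did not pass. Eps15l1, an endocytic scaffold, fell (-0.21 ± 0.09), and the epsin Epn2 had -0.16 ± 0.17. In all, 7 of 13 genes of the clathrin and adaptor group fell and 1 rose.

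Rab GTPases cycle between a GTP-bound form on membranes and a GDP-bound form in the cytosol. Of 11 in the table, 6 fell and none rose, with a median ratio of -0.26. Rab3b, of the Rab3 family of regulated exocytosis, was at 27.3, 25.6 and 27.7 FPKM in DCM libraries A, B and C, against 38.5, 52.9 and 34.4 FPKM in NF libraries A, B and C. The 3 DCM libraries were nearly level and all below the NF libraries, so that the spread of its ratio (-0.62 ± 0.38, limma adjusted p = 0.0455) came mostly from the NF side. Rab32, which acts at mitochondria and lysosome-related organelles, fell by 0.46 ± 0.15 on the log2 scale, and its groups overlapped (4.25 to 7.35 FPKM with DCM serum and 6.56 to 9.20 FPKM with NF serum). Rab13 fell by 0.40 ± 0.12, Rab2b by 0.30 ± 0.23, Rab4a by 0.29 ± 0.09 and Rab23 by 0.26 ± 0.16, all on the log2 scale.

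Rab11a, the central Rab of slow recycling, did not pass. It averaged 28.8 ± 4.01 FPKM with DCM serum and 30.2 ± 3.55 FPKM with NF serum, with a ratio of -0.07 ± 0.07 (limma adjusted p = 0.375). Nor did Rab21, an endosomal Rab that binds integrins (-0.14 ± 0.12), Rab28 (-0.02 ± 0.01), Rab3d (-0.15 ± 0.11) or Rab7l1, now named Rab29 (-0.19 ± 0.18). Rab5al1, which no role pattern took, averaged 40.4 ± 5.43 FPKM with DCM serum and 43.3 ± 5.93 FPKM with NF serum. Rab5a is a separate gene of similar name, and how reads common to similar genes were assigned is not given in the sources used here, so the value of Rab5al1 is uncertain.

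Rab regulators switch the GTPases on and off, and effectors act on their signal. Of these 12 genes 9 fell and none rose, with a median of -0.38, where 61.6% of all entries fell. Tbc1d4 (AS160), a GTPase-activating protein that holds GLUT4 vesicles inside the cell until insulin signaling phosphorylates it, was at 6.96, 11.8 and 11.9 FPKM in DCM libraries A, B and C. It was at 11.6, 26.2 and 16 FPKM in NF libraries A, B and C. The groups overlapped because preparation A was low with both sera. Each DCM library was below its own NF library, as for every lower entry of the table (log2 ratios -0.74, -1.15 and -0.42, limma adjusted p = 0.0354). Rin2, an exchange factor for Rab5, fell by 0.55 ± 0.28 on the log2 scale (6.0 ± 1.58 FPKM with DCM serum and 8.74 ± 2.01 FPKM with NF serum).

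Both rabaptins, effectors of Rab5 on early endosomes, fell and had no overlap between the sera. Rabep1 averaged 5.02 ± 0.471 FPKM with DCM serum and 6.5 ± 0.718 FPKM with NF serum (ratio -0.37 ± 0.27). Rabep2 averaged 3.22 ± 0.823 FPKM with DCM serum and 4.21 ± 0.179 FPKM with NF serum (ratio -0.42 ± 0.43). The difference of Rabep2 was widest in preparation B (log2 ratios -0.17, -0.91 and -0.18), and neither rabaptin passed after centring. Among TBC proteins, Tbc1d31 fell by 0.49 ± 0.36, Tbc1d8 by 0.46 ± 0.07 and Tbc1d14 by 0.39 ± 0.36 on the log2 scale. Tbc1d7, a subunit of the TSC complex that restrains mTORC1, fell by 0.33 ± 0.14. Rabggta, a subunit of the enzyme that attaches the lipid anchor to Rabs, fell by 0.31 ± 0.30. Dennd4b, Tbc1d9b and Rabgap1 had ratios between -0.15 and -0.10 and did not pass.

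A list of genes that move GLUT4 storage vesicles has 8 of its 25 genes among the 97, and 6 of the 8 fell, with a median ratio of -0.33, near the 61.6% falling and the median of -0.29 over all entries. Besides Tbc1d4 and Gga2 these were Rab13 and Rab4a, Stx16, a SNARE of the trans-Golgi network (-0.35 ± 0.09), and Vamp3, a vesicle SNARE of recycling endosomes. Vamp3 was at 49.6, 38.1 and 43.3 FPKM in DCM libraries A, B and C, against 57.2, 50 and 54 FPKM in the NF libraries. The groups were apart by a narrow margin (ratio -0.31 ± 0.09, limma adjusted p = 0.0452). Exoc1 of the exocyst (-0.14 ± 0.07) and Rab11a did not pass. Of these 6, only Tbc1d4 and Gga2 fell after centring on the preparation medians, and only Tbc1d4 passed with each preparation left out. A second list, of trafficking genes studied in heart muscle, has 6 of its 23 genes among the 97. Of these Ehd1 and Rab4a fell, Rab11a, Snx17, Stx5 and Cltc did not pass, and the median ratio was -0.11.

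**Figure D3:**
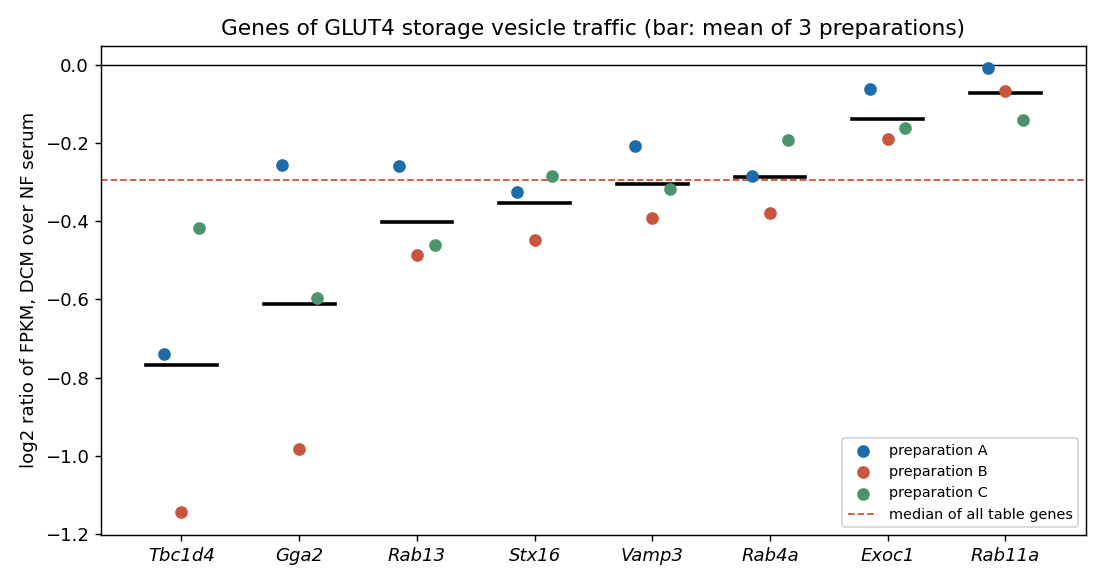
Log2 ratio of FPKM, DCM over NF serum, in preparations A, B and C for the 8 trafficking genes of GLUT4 storage vesicle traffic, with bars for the mean and a dashed line for the median of all table entries (-0.29). Every ratio is below 0, and no entry of the table changes sign between preparations. Tbc1d4 (mean -0.77) and Gga2 (-0.61) are the lowest, and Rab11a (-0.07) is nearest to 0.

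Small GTPases of the Arf and Arl families recruit coats and lipid enzymes. Of 7 genes in this group 6 fell, by little, with a median of -0.21. The abundant class II Arfs were among them, Arf4 at 57.0 ± 9.05 FPKM with DCM serum and 64.8 ± 8.64 FPKM with NF serum (ratio -0.19 ± 0.04), and Arf5 with a ratio of -0.21 ± 0.08. Arl2, which acts in tubulin folding, fell by 0.35 ± 0.12 on the log2 scale, and its partner Arl2bp by 0.19 ± 0.04. Arl2 and Arl2bp each had no overlap between the sera. Arl10 fell by 0.50 ± 0.20, and its level was higher in preparation A with both sera (7.84, 2.79 and 3.39 FPKM in DCM libraries A, B and C, and 10.0, 4.65 and 4.53 FPKM in the NF libraries). Arl6ip1, an ER-shaping protein that the name pattern took, fell by 0.31 ± 0.26, and Arf2 had -0.12 ± 0.09 and did not pass. After centring on the preparation medians, the log2(FPKM + 1) differences of Arf4, Arf5 and Arl2bp were 0.02 to 0.04, and none passed.

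Early secretory genes had the smallest median difference of the 8 role groups. Of 10 genes 3 fell (Sec16b, Sec31b and Copg2), with a group median of -0.18. Sec16b, a scaffold of ER exit sites, was at 1.46, 2.65 and 2.64 FPKM in DCM libraries A, B and C, against 2.40, 5.75 and 3.22 FPKM in NF libraries A, B and C. It was low in preparation A with both sera, and its ratio was -0.71 ± 0.41 (limma adjusted p = 0.0483). Sec31b of the outer COPII coat fell by 0.30 ± 0.26 and Copg2 of COPI by 0.27 ± 0.15 on the log2 scale, while Sec24b, which binds COPII cargo, had -0.25 ± 0.23 and did not pass. The remaining COPI subunits were nearly level: Copb1 had -0.07 ± 0.06, Copz2 -0.07 ± 0.06 and Copz1 -0.05 ± 0.03, the last at 46.1 ± 2.56 FPKM with DCM serum and 47.5 ± 1.76 FPKM with NF serum. The p24 cargo receptors Tmed1 and Tmed4 and the translocon subunit Sec61b had ratios between -0.18 and -0.15 and did not pass.

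Among tethering genes the largest difference was that of Trappc2. This subunit of the TRAPP complexes, known as sedlin in humans, was at 3.28, 3.10 and 4.34 FPKM in DCM libraries A, B and C, against 5.33, 6.75 and 7.77 FPKM in NF libraries A, B and C. All DCM libraries were below all NF libraries (ratio -0.89 ± 0.22, limma adjusted p = 0.0226). The reference lists Trappc2b as a separate gene of similar name, which makes the level of Trappc2 uncertain. Among its partners Trappc6a fell (-0.34 ± 0.32), and Trappc2l (-0.17 ± 0.15) and Trappc13 (-0.05 ± 0.04) did not pass.

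Of the exocyst, which tethers secretory vesicles at the plasma membrane, Exoc2 fell (-0.23 ± 0.11) and Exoc1, Exoc5 and Exoc6b did not pass. None of the COG subunits, tethers within the Golgi, passed (Cog2 -0.17, Cog7 -0.15, Cog4 -0.11). Golga1, a golgin of the trans-Golgi network, fell by 0.41 ± 0.19 on the log2 scale without overlap between the sera, and Golga7 had -0.14 ± 0.11. For the endosomal and lysosomal tethers, Vps8 of CORVET (-0.27 ± 0.22) and Vps33a (-0.24 ± 0.10) fell, and Vps39 of HOPS had -0.22 and did not pass. Vps54 of the separate GARP complex also had -0.22 and did not pass. In the whole group 6 of 17 fell.

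Retromer and sorting nexins retrieve cargo from endosomes, and ESCRT proteins pinch membranes away from the cytosol. Of these 15 genes 7 fell, with a median of -0.26. The retromer subunit Vps26b was at 18.4, 16.7 and 21.7 FPKM in DCM libraries A, B and C, against 21.5, 29.7 and 27.2 FPKM in NF libraries A, B and C. The groups met at the edge, with DCM library C just above NF library A (ratio -0.46 ± 0.33, limma adjusted p = 0.0574). Vps29, the subunit it shares the complex with, had -0.12 ± 0.13 and did not pass. Among sorting nexins Snx21 (-0.35 ± 0.21) and Snx4 (-0.30 ± 0.15) fell, and Snx24, Snx6 and Snx17, the last a recycling adaptor for integrins, had ratios between -0.19 and -0.16 and did not pass.

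Chmp4c, an ESCRT-III subunit of the abscission checkpoint in dividing cells, had the largest difference of the ESCRT genes. It was at 1.97, 1.82 and 3.12 FPKM in DCM libraries A, B and C, against 3.59, 3.39 and 3.59 FPKM in NF libraries A, B and C. DCM library C was much closer to the NF libraries than A and B were (ratio -0.66 ± 0.39, limma adjusted p = 0.0455). Chmp5 (-0.30 ± 0.19) and Chmp6 (-0.26 ± 0.22) fell, while Chmp3 (-0.11 ± 0.07) and both Vps4 ATPases, which take ESCRT-III filaments apart, did not pass (Vps4a -0.09 ± 0.06 and Vps4b -0.16 ± 0.12). Vps9d1, which carries a domain found in Rab5 exchange factors, fell (-0.27 ± 0.10), and the lipid transfer protein Vps13c had -0.34 ± 0.32 and did not pass.

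SNAREs and the proteins that act on them held the largest decrease. Doc2g is a double C2 domain protein, related to calcium sensors of exocytosis, and its ratio of -1.72 ± 0.27 was the most negative of all 3221 entries (limma adjusted p = 0.0167). It was at 0.506, 0.874 and 1.25 FPKM in DCM libraries A, B and C, against 1.78, 3.34 and 3.35 FPKM in NF libraries A, B and C. The sera did not overlap, but these are low levels, and preparation A was the lowest with both sera. Stxbp6 (amisyn), which binds syntaxins in place of a vesicle SNARE, was at 6.53, 6.13 and 9.09 FPKM in the DCM libraries, against 7.63, 15.8 and 13.4 FPKM in the NF libraries. The groups overlapped, and its difference was widest in preparation B (log2 ratios -0.22, -1.36 and -0.56, limma adjusted p = 0.0602).

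Vamp5, a vesicle SNARE of the VAMP family known for its high level in muscle, was the most abundant gene of this group. It was at 70.0, 63.8 and 84.5 FPKM in DCM libraries A, B and C, against 89.3, 113 and 114 FPKM in NF libraries A, B and C. All DCM libraries were below all NF libraries (ratio -0.53 ± 0.25, limma adjusted p = 0.0387). The longin SNARE Ykt6 (-0.41 ± 0.33), the synaptotagmin Syt17 (-0.39 ± 0.09) and Vti1b of late endosomes (-0.23 ± 0.20) also fell. The syntaxins Stx6 (-0.19 ± 0.13), Stx12 (-0.14 ± 0.07) and Stx5 of the Golgi (-0.05 ± 0.05) did not pass, although the libraries of Stx12 did not overlap. In all, 8 of 11 genes of this group fell, where 61.6% of all entries did, and the median was -0.35.

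The level of many trafficking genes also differed between NRVM preparations. For 62 of 97 genes the range of the preparation means was wider than the mean serum difference, with a median of 0.33 against 0.23 on the log2 scale. Preparation B gave the most negative ratio for 57 genes, C for 28 and A for 12, a share for B (58.8%) close to that of the whole table (58.0%). Over the 97 genes, which share the 6 libraries, the ratios of preparations A and B had a Pearson correlation of 0.688, A and C 0.620, and B and C 0.651. The table holds only entries selected on these ratios.

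The ratio was also set beside the level of each gene. Over the 97 genes the Spearman correlation of mean FPKM with the log2 ratio was 0.461, and over all 3221 entries it was 0.399. It is a description, since all genes share the same libraries. The authors' removal of genes with a variance under 0.1 takes out low genes with small differences, and its part in this relation was not tested.

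**Figure D4:**
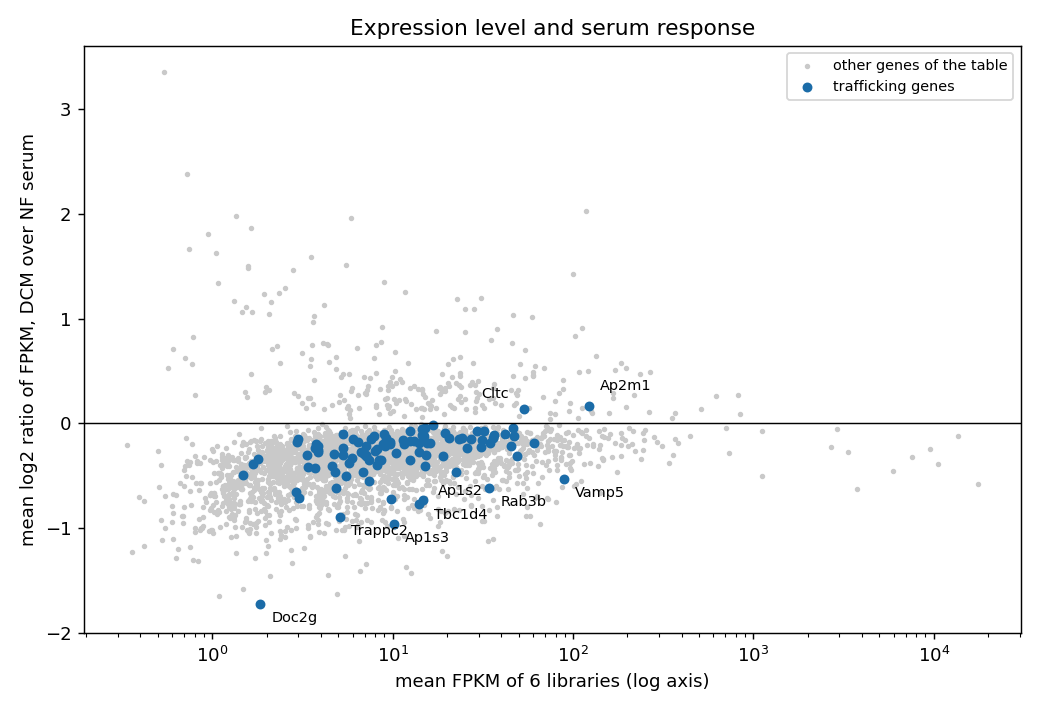
Mean FPKM over the 6 libraries (log axis) against the mean log2 ratio (DCM over NF serum) for the 97 trafficking genes (blue) and the other entries of the table (gray). Doc2g (-1.72) is the lowest point of the table, Ap2m1 and Cltc are the only trafficking genes above 0, and the table holds no entry with an FPKM variance under 0.1.

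A list of other trafficking genes, which the name pattern does not take, has 27 of its 179 genes in the table. Of the 27, 4 rose and 10 fell, with a median ratio of -0.14, where 6.24% of all entries rose and 61.6% fell. After centring or upper quartile scaling, which raise every ratio here, 6 rose and 0 fell. After centring, 7.82% of all entries rose and 10.7% fell. The 2 largest called changes in each direction were those of the Arf exchange factor Cyth3 (0.36 ± 0.03, limma adjusted p = 0.0389) and the caveolar protein Cav2 (0.34 ± 0.08, limma adjusted p = 0.0585), which rose, and those of Micall2 (-0.54 ± 0.49, limma adjusted p = 0.0725) and Hip1r (-0.44 ± 0.32, limma adjusted p = 0.0581), which fell. Micall2 is a Rab13 effector, and Hip1r links clathrin coats to actin. The others that rose, named here after their values were seen, were Rabac1, a prenylated Rab acceptor (0.32 ± 0.04, limma adjusted p = 0.0381), and Picalm, a clathrin assembly protein (0.17 ± 0.03, limma adjusted p = 0.0980). Gak, which strips clathrin from vesicles, and Hgs, which binds clathrin on endosomes, were also named afterwards, and their ratios of 0.15 ± 0.03 and 0.14 ± 0.03 did not pass. Dab2, a clathrin adaptor likewise named afterwards, went the other way and fell (-0.31 ± 0.13, limma adjusted p = 0.0506).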

How the data were processed

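The 6 libraries were directional mRNA libraries of serum-treated NRVMs. The authors aligned reads to Rnor_5.0 with GSNAP, computed FPKM with Cufflinks and removed genes of low variance (under 0.1). Tool versions are not given in the sources used here. The deposited table also holds the authors' signed fold changes (a score), read only to see which DCM and NF library are paired, and their p-values and q-values, of which only the threshold was checked, and none of these results was used.

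Members and lists were chosen with earlier results of these data known. Limma 3.58.1 in R 4.3.3 was fitted to log2(FPKM + 1) of all 3221 entries, with preparation as a block, since the authors normalized to NF within each preparation, and calls were made at an adjusted p under 0.10. Residual degrees of freedom were 2 (3.11 prior) with the block and 4 (3.38 prior) without. The pairing comes from the authors' ratio columns, each of which equals 1 DCM over 1 NF library for all entries. Around the mean of each serum group, the deviations of paired libraries correlated at 0.873, 0.743 and 0.741, and those of other pairs at -0.706 to 0.235. The entries were selected on ratios within these same pairs, and deviations around a group mean must balance. The correlations are therefore no independent check of the pairing. The fit was tested on simulated data with the same spread for every gene and no preselection. That test therefore cannot speak for calls in a preselected table. Summaries used Python 3.11, with numpy 2.4.6, scipy 1.17.1 and pandas 2.3.3.

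Roles were assigned by symbol patterns, and complexes from background knowledge. Named in full were the genes that rose, the 12 largest falls, the 3 most abundant of each role and members of the GLUT4 and cardiac lists, with others given more briefly. Of the 97 symbols, 96 matched the reference as written and 1 by an older symbol. Alternatives covered the block, each preparation left out, pseudocounts, a filter at a mean FPKM of 1, centring, upper quartile scaling, a threshold of 0.05, and robust and trended priors.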

Additional observations from a re-analysis of the deposited data

How the results depend on the processing

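Of the 97 trafficking genes, 52 fell and 1 rose in the paired limma fit. No gene of the 97 fell or rose without the replicate block, 14 passing at an unadjusted p under 0.05 (533 of all 3221 entries). With a preparation left out 11 to 24 fell and 0 rose. Centring gave 10 and 2, upper quartile scaling 12 and 2, and a threshold of 0.05 gave 19 and 0. The 1 that rose was 0 with a pseudocount of 0.1 FPKM or none, and 2 rose with a trended prior. Over all entries 1984 fell and 201 rose. These became 1 and 3 without the block, 461 to 1164 and 97 to 140 with a preparation left out (523 and 97 without C, 131 rising without B), 344 and 252 when centred (57.7% of calls lower, against 90.8% uncentred), 485 and 251 with upper quartile scaling (65.9% lower), and 715 lower at 0.05. Of the other trafficking genes 10 fell and 4 rose, against 0 and 0 without the block, 0 to 5 and 0 to 2 with a preparation left out, 0 and 6 when centred or scaled, and 0 and 2 at 0.05. Centring moved the group medians to 0.016 for Rab GTPases, -0.11 for Rab regulators, 0.0597 for Arf and Arl genes, 0.088 for early secretory genes, 0.061 for clathrin and adaptors, -0.0804 for SNAREs, 0.072 for tethers and 0.0089 for retromer, sorting nexins and ESCRT. The last was -0.26 in full and ranged from -0.29 to -0.18 with a preparation left out (-0.21 without C).

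Centring and scaling raise every ratio by construction. The log2(FPKM + 1) differences of 20 named genes turned positive, none of them past the threshold. Centred, they were Ehd1 0.00703, Arf5 0.019, Arf4 0.041, Arl2bp 0.043, Snx17 0.074, Tmed1 0.081, Rab21 0.087, Stx12 0.089, Golga7 0.095, Exoc1 0.10, Vps29 0.11, Chmp3 0.12, Cog4 0.12, Rab5al1 0.13, Rabgap1 0.13, Rab11a 0.16, Copb1 0.16, Trappc13 0.18, Copz1 0.18, Stx5 0.18. Scaled, they were Ehd1 0.0088, Arf5 0.023, Arl2bp 0.045, Arf4 0.047, Snx17 0.076, Tmed1 0.082, Rab21 0.086, Exoc1 0.088, Stx12 0.092, Golga7 0.095, Vps29 0.11, Cog4 0.12, Rabgap1 0.12, Chmp3 0.12, Rab5al1 0.13, Rab11a 0.16, Copb1 0.16, Trappc13 0.17, Stx5 0.18, Copz1 0.19. The filter at a mean FPKM of 1 and robust eBayes changed no call among the 39 named genes. Confidence limits per gene are not given, and the counts behind each value are unknown.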
